A study of Homo sapiens with 2 samples.

Results

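The 7 genes described here encode the parts of the acetylcholine-gated potassium current of the heart and the proteins that set its strength. KCNJ3 and KCNJ5 encode the channel subunits GIRK1 and GIRK4. CHRM2 encodes the muscarinic receptor of the heart, GNAO1 and GNAI2 encode G protein alpha subunits of the inhibitory class, and RGS4 and RGS6 encode regulators that switch these G proteins off. The genes were chosen by name for their known part in this current, with earlier results of these data known, and all 7 of 7 were found, each as 1 of the 36601 genes of the deposited matrix.

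When the vagus nerve releases acetylcholine, the muscarinic receptor activates inhibitory G proteins, and their freed beta-gamma subunits open a channel built from GIRK1 and GIRK4. Potassium then leaves the cell and firing slows, which is how vagal tone lowers the heart rate at the sinoatrial node. RGS proteins speed the return of the alpha subunit to its inactive state and so shorten the response. TBX3 is a transcription factor of the conduction system that is known to repress genes of the working heart muscle.

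The cells came from 1 differentiation culture of HES2, an established human embryonic stem cell line, directed towards sinoatrial node-like pacemaker cells. They were stained with a barcoded antibody against human CD34, sorted as live single cells with DAPI and built into 2 libraries, 1 of RNA and 1 of antibody tags, so that both were counted over the same 14829 cell barcodes. No group differed in genotype, treatment or time, and every comparison below is between cells of this culture. Cardiomyocytes were cells with TNNT2, cardiac troponin T, at 2000 counts per 1000000 RNA molecules of the group or cell (CPM) or more (5516 cells), and other cells had under 1000 CPM of TNNT2 (5246 cells). Cardiomyocytes were further divided by TBX3 at 0 unique molecular identifiers (UMIs, the counted RNA molecules; 1898 cells), 1 to 3 UMIs (1984 cells) or 4 or more UMIs (1634 cells), and by quartiles of the CD34 tag, the antibody UMIs per cell, from at most 45 tag UMIs in the lowest quartile (1403 cells) to at least 279 in the highest (1380 cells). These are ranges of continuous measures and not cell types.

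RefSeq places KCNJ3 at chr2:154698695-154858354, KCNJ5 at chr11:128891356-128921163, CHRM2 at chr7:136868652-137020213, GNAO1 at chr16:56191489-56357444, GNAI2 at chr3:50227068-50259362, RGS4 at chr1:163068871-163076802 and RGS6 at chr14:71867335-72630029 (GRCh38.p14). Start-region sequences are shown for KCNJ3, KCNJ5 and GNAO1, because KCNJ5 and GNAO1 moved together and KCNJ3, the partner of KCNJ5 in the channel, moved the other way, and because RefSeq lists a single start window for each of these 3 members. Each sequence is the 250 bases before the annotated start on the plus strand (GRCh38.p14), at chr2:154698445-154698694 for KCNJ3, chr11:128891106-128891355 for KCNJ5 and chr16:56191239-56191488 for GNAO1. Capitals mark GC boxes, GGGCGG on either strand.
KCNJ3 promoter: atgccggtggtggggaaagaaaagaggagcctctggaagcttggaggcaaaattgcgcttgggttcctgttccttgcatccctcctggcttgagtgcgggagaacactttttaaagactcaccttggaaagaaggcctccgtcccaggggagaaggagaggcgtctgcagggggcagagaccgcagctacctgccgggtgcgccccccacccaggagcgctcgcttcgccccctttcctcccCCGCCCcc
KCNJ5 promoter: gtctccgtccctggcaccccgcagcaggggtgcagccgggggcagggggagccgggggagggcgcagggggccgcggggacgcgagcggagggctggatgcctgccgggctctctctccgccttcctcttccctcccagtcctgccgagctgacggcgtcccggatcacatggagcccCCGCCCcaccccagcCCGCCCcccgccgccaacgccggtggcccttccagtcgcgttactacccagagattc
GNAO1 promoter: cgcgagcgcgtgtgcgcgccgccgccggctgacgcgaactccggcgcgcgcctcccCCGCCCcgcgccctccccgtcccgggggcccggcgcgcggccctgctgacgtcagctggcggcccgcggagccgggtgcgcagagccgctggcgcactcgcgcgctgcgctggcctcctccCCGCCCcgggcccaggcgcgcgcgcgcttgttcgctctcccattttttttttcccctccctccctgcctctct
The KCNJ3 window held 1 GC box and the KCNJ5 and GNAO1 windows held 2 each, and 42.6% of the 35116 RefSeq windows searched, each from 250 bases before to 50 bases after a start, held at least 1. Neither the T-box half-site GGTGTGA nor the NKX2-5 site TNAAGTG was found on either strand of any of the 3 windows, and these letters occurred in 2.76% and 8.73% of all windows. GC content was 62.4% for KCNJ3, 75.2% for KCNJ5 and 79.2% for GNAO1, with 12, 24 and 44 CpG dinucleotides.

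As a check on the labelled cell type, the 8 cardiomyocyte markers were each above 10 CPM in cardiomyocytes, where they summed to 34027 CPM, against 827 CPM in other cells. SHOX2, a transcription factor of the sinoatrial node, stood at 522 CPM in cardiomyocytes and 17.9 CPM in other cells. It was close to level along TBX3, at 541 CPM in cells with TBX3 at 4 or more UMIs and 526 CPM in cells with none. Other pacemaker markers were less level, with CACNA1D at 134 and 83.4 CPM, VSNL1 at 288 and 211 CPM and HCN4 at 114 and 86.6 CPM. The 6 pacemaker markers, SHOX2 among them, summed to 1237 CPM with TBX3 at 4 or more UMIs and 1052 CPM with none. CD34 RNA was at 23.6 CPM in the highest tag quartile and 0.456 CPM in the lowest. The 11211 cells kept held a median of 16607 RNA UMIs, and the median was 16209 in cardiomyocytes and 17257 in other cells. Depth, TBX3 and the tag went together, with medians of 14859, 16253.5 and 17327.5 UMIs at TBX3 of 0, 1 to 3 and 4 or more, and 14292 to 17064.5 UMIs from the lowest to the highest tag quartile. There was 1 culture and no replicate, so intervals below are exact 95% counting intervals unless said otherwise. They cover counting error only, and no p-value is given.

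Most of the measured members were higher in cardiomyocytes than in other cells. Of the 6 members with at least 10 CPM in the higher group, 5 were at least 25% higher in cardiomyocytes, a limit passed by 27.3% of the 10031 genes measured, and 1 was at least 20% lower, as were 39.6% of genes. All 5 reached 10 CPM in cardiomyocytes alone, so the floor let them in through the group where they were higher. The count is therefore a description, and with a floor of 50 CPM it was 1. KCNJ3, the subunit that is known to need a partner to reach the cell membrane, stood at 45.8 CPM in cardiomyocytes and 3.29 CPM in other cells, a ratio of 13.9 (12.4 to 15.7). KCNJ5, its partner, stood at 39.2 CPM in cardiomyocytes and 1.03 CPM in other cells, and its ratio of 38.1 (31.1 to 47.3) was the 31st highest of all measured genes. CHRM2, the receptor, was at 104.9 CPM in cardiomyocytes and 9.28 CPM in other cells, a ratio of 11.3 (10.5 to 12.1). GNAO1 was at 45.04 CPM in cardiomyocytes and 3.78 CPM in other cells (ratio 11.9, 10.7 to 13.4).

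The second alpha subunit ran the other way. GNAI2, which is widely expressed in the body, was at 81.9 CPM in cardiomyocytes and 131 CPM in other cells, a ratio of 0.625 (0.607 to 0.643). GNAO1 therefore made up 21.8% (21.2% to 22.4%) of the UMIs of GNAI1, GNAI2, GNAI3 and GNAO1 together in cardiomyocytes, against 1.21% (1.09% to 1.35%) in other cells. The 2 regulators also parted. RGS6, which acts together with the G protein subunit encoded by GNB5, was at 36.6 CPM in cardiomyocytes and 2.77 CPM in other cells (ratio 13.2, 11.6 to 15.1). RGS4 was at 3.32 CPM in cardiomyocytes and 8.79 CPM in other cells (ratio 0.377, 0.330 to 0.431), under the floor of 10 CPM in both, and is not counted among the members past a limit. In cells of 10000 to 20000 RNA UMIs alone the RGS4 ratio was 0.765.

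**Figure D1:**
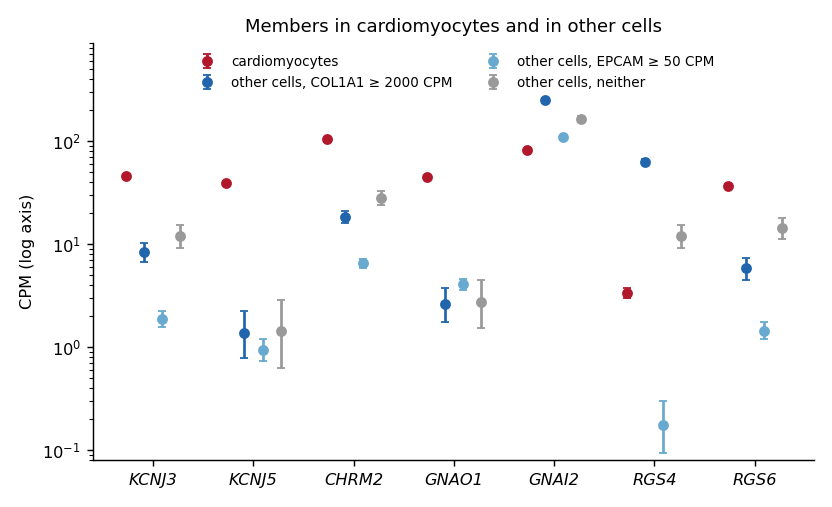
The level of each member in CPM (log axis) is plotted for cardiomyocytes and for 3 divisions of the other cells, with exact 95% counting intervals. KCNJ3, KCNJ5, CHRM2, GNAO1 and RGS6 are highest in cardiomyocytes, while GNAI2 and RGS4 are highest in the other cells with COL1A1 at 2000 CPM or more.

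Low levels in other cells can hold free RNA of the droplets, which was not measured, so cardiomyocyte markers are given beside them. For the 8 cardiomyocyte markers, other cells held between 2.20% (MYH6) and 5.44% (RYR2) of the level in cardiomyocytes. KCNJ5 fell inside this range at 2.62% (2.11% to 3.22%), and no expression outside cardiomyocytes is read from it. KCNJ3 at 7.19% (6.37% to 8.08%), RGS6 at 7.57%, GNAO1 at 8.38% and CHRM2 at 8.85% (8.24% to 9.50%) lay above it. The other cells were defined by low TNNT2, which the members did not follow alike. Where the molecules of any member in these cells came from was not tested.

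Dividing the other cells by COL1A1, a fibroblast collagen gene, and EPCAM, an epithelial surface gene, showed where these molecules sat. RGS4 was at 62.4 CPM (58.0 to 67.2) in the 617 other cells with COL1A1 at 2000 CPM or more, at 0.175 CPM in the 4255 remaining cells with EPCAM at 50 CPM or more, and at 11.9 CPM in the 374 cells with neither. Its 3.32 CPM in cardiomyocytes thus lay above the EPCAM cells, which are most of the other cells, and below both other divisions. GNAI2 followed the same order of extremes, with 252 CPM in the COL1A1 cells, 110 CPM in the EPCAM cells and 162 CPM in cells with neither. CHRM2 was at 28.1 CPM in cells with neither, 18.3 CPM in the COL1A1 cells and 6.47 CPM in the EPCAM cells. KCNJ3 was at 11.9 CPM, 8.28 CPM and 1.87 CPM in the same divisions, and RGS6 at 14.2 CPM, 5.78 CPM and 1.44 CPM. MYH6 moved less between these cells, at 180 CPM with neither gene, 149 CPM in the COL1A1 cells and 146 CPM in the EPCAM cells. KCNJ5 was between 0.943 and 1.44 CPM in all 3 divisions, and GNAO1 was between 2.59 and 4.04 CPM with its highest value in the EPCAM cells. The fibroblast markers as a list summed to 690 CPM in cardiomyocytes and 6254 CPM in other cells, and the part of fibroblasts in the RGS4 and GNAI2 values was not tested.

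Among the wider pathway genes, 4 of 14 inward rectifier channel genes were measured, and 3 were higher in cardiomyocytes. Besides KCNJ3 and KCNJ5 these included KCNJ8, a subunit of the ATP-sensitive potassium channel (14.9 CPM in cardiomyocytes, 1.70 CPM in other cells). KCNJ2, which carries the resting current of working muscle, was at 5.46 CPM in cardiomyocytes and 59.5 CPM in other cells (ratio 0.0917). Of 14 receptors that couple to inhibitory G proteins, 4 were measured, the member CHRM2 among them, and 4 were higher. These 4 and the 3 higher channel genes reached 10 CPM in cardiomyocytes alone. The floor thus let them in through the group where they were higher, and the counts say nothing of either class. ADORA1, the adenosine receptor that opens the same channel, was at 20.3 CPM in cardiomyocytes and 0.700 CPM in other cells, S1PR1 had a ratio of 13.1 and S1PR3 a ratio of 5.30. None of the 3 other muscarinic receptors searched reached 10 CPM in either group.

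Of 10 measured alpha subunits, 4 were higher and 5 lower in cardiomyocytes, with GNAL at a ratio of 6.66 and GNAI1 at 0.232. Of 10 measured beta and gamma subunits, 2 were higher (GNG7, 8.38; GNB5, 1.37) and 5 lower, GNG4 the lowest at 0.0892. Of 5 measured RGS genes, RGS6 and RGS3 (ratio 4.76) were higher and RGS10 (0.102) lower. Of 17 measured receptor kinases, arrestins and other regulators, 7 were higher and 4 lower, GRK5 having a ratio of 3.38 and ARRB1 a ratio of 0.182. COLQ, which anchors acetylcholinesterase, was at 28.3 CPM in cardiomyocytes and 1.35 CPM in other cells, whereas ACHE, the enzyme itself, was at 3.59 CPM in cardiomyocytes and 13.0 CPM in other cells. In the opposing branch, 9 of 12 measured genes of beta-adrenergic and cyclic AMP signalling were higher and 2 lower. ADRB1 was at 49.7 CPM in cardiomyocytes and 1.27 CPM in other cells. Of the 58 measured pathway genes other than members, 77.6% were past a limit, against 66.9% of all measured genes. The median log2 ratio was 3.65 over the 6 measured members, 3.604 over the inhibitory receptors, 3.47 over the inward rectifier genes and 1.42 over the cyclic AMP genes. It was -0.28 over the alpha subunits, -0.29 over the beta and gamma subunits, -0.01 over the RGS genes and 0.11 over the kinases, arrestins and other regulators, against -0.13 over all measured genes. The medians of the members, inhibitory receptors and inward rectifier genes rest mostly on genes that reached 10 CPM in cardiomyocytes alone.

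The members did not follow TNNT2 alike, as ranges of TNNT2 drawn after the values were seen showed. KCNJ3 was at 2.85 CPM in cells with TNNT2 under 500 CPM, 5.50 CPM at 500 to 1000 CPM and 39.4 CPM at 1000 to 2000 CPM. Within the cardiomyocytes KCNJ3 was at 56.6 CPM at 2000 to 4000 CPM of TNNT2, 47.2 CPM at 4000 to 8000 CPM and 37.1 CPM at 8000 CPM or more. KCNJ5 over the same 6 ranges was at 0.986, 1.24, 10.6, 24.7, 40.0 and 47.0 CPM. The channel subunits thus ran in opposite directions above 2000 CPM of TNNT2. GNAO1 was, like KCNJ5, higher at each step, at 20.4, 43.0 and 63.6 CPM over the 3 upper ranges, GNAI2 was lower at each step, at 99.6, 81.2 and 72.2 CPM, and RGS6 stayed at 37.5, 36.6 and 35.8 CPM. CHRM2 was at 42.6 CPM at 1000 to 2000 CPM of TNNT2 and at 82.4, 112 and 108 CPM above. The range of 1000 to 2000 CPM held 449 cells, of which Scrublet called 27.4% as doublets, and without those calls KCNJ3 was at 53.7 CPM (46.2 to 62.0) and KCNJ5 at 8.21 CPM (5.46 to 11.9). Scrublet called 27.1%, 9.93% and 1.16% of the cells in the 3 upper ranges. Without these calls, an alternative chosen after the data were seen, KCNJ3 was at 73.8, 49.9 and 36.9 CPM and KCNJ5 at 27.8, 42.2 and 47.1 CPM, and RGS6 was lower at each step, at 48.999, 38.6 and 36.1 CPM. COL1A1 was lower at each step of the 3 upper ranges, at 387, 99.3 and 30.6 CPM, and cycling cells made up 43.2%, 24.3% and 3.58% of them. Their part in these gradients was not tested.

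Along TBX3, the 2 channel subunits again ran in opposite directions. Of 6 measured members, KCNJ5 and GNAO1 were at least 25% higher in cells with TBX3 at 4 or more UMIs than in cells with none, as were 7.38% of the 9155 genes measured. KCNJ3 and RGS6 were at least 20% lower, as were 6.63% of genes, and CHRM2 and GNAI2 lay between. KCNJ5 was at 19.2, 33.7 and 63.9 CPM at TBX3 of 0, 1 to 3 and 4 or more UMIs. Its counting intervals did not overlap, and the ratio of the highest to the lowest group was 3.32 (3.02 to 3.66), the 15th highest of all measured genes. KCNJ3 was at 53.8, 44.4 and 40.0 CPM over the same groups. Its ratio was 0.744 (0.689 to 0.803), number 443 from the lowest.

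CHRM2 changed little, at 98.3, 102 and 114 CPM at TBX3 of 0, 1 to 3 and 4 or more UMIs (ratio 1.16, 1.104 to 1.22). GNAO1 was at 23.1, 38.5 and 72.7 CPM, and its ratio of 3.15 (2.88 to 3.44) was the 22nd highest. GNAI2 was at 86.3, 79.2 and 81.0 CPM, a ratio of 0.939 (0.887 to 0.993). GNAO1 thereby made up 12.3%, 19.5% and 31.1% of the UMIs of the 4 inhibitory alpha subunit genes over the 3 groups. RGS6 was at 45.6, 36.4 and 28.3 CPM (ratio 0.620, 0.568 to 0.676). RGS4 was at 4.87, 3.63 and 1.52 CPM, from 137 UMIs at TBX3 of 0 and 46 UMIs at TBX3 of 4 or more, a ratio of 0.312 (0.219 to 0.439) under the 10 CPM floor that was 0.526 without the ceiling on RNA UMIs.

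The direction of each of these ratios that lay past a limit was the same under all 10 alternatives tried for single genes, with KCNJ5 between 2.60 and 3.68 and GNAO1 between 2.59 and 3.83. In cells of 10000 to 20000 RNA UMIs alone, where depth differed less, KCNJ5 had a ratio of 3.65 and KCNJ3 one of 0.774. KCNJ3 left its limit with TNNT2 at 4000 CPM or more (0.869) and with TBX3 counted after each cell was reduced to 5000 UMIs and the high group set at 2 or more UMIs (0.835). Scrublet called 12.9% of cells with TBX3 at 4 or more UMIs and 5.95% of cells with none, and without these calls KCNJ5 had a ratio of 3.68 and GNAO1 one of 3.37. Overlapping genes can share reads, as the strand setting of the counting is not given in the sources used here. RGS6 overlaps DPF3 in RefSeq, which stood at 61.8 CPM with TBX3 at 4 or more UMIs and 58.4 CPM with none, and KCNJ5 overlaps C11orf45, which had 3 UMIs in all cardiomyocytes.

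**Figure D2:**
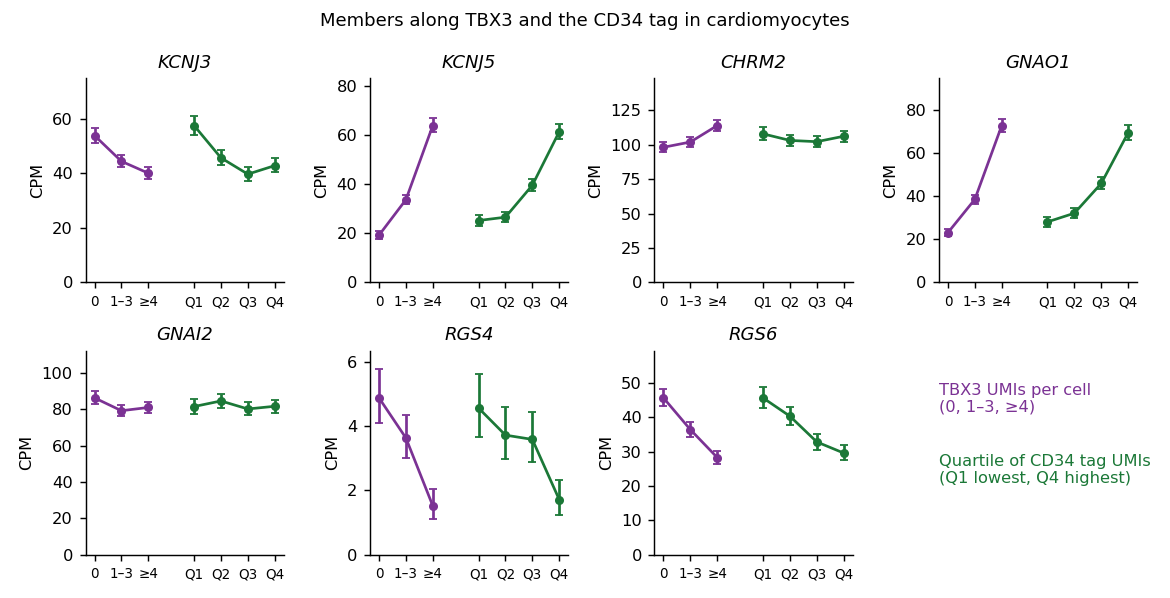
Each panel shows 1 member in CPM across TBX3 UMIs per cardiomyocyte (purple) and across quartiles of the CD34 tag (green), with exact 95% counting intervals and axes from 0. KCNJ5 and GNAO1 climb along both measures, KCNJ3, RGS4 and RGS6 are lower at the high end than at the low end of both, and CHRM2 and GNAI2 stay nearly level.

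The CD34 tag placed the same members past each limit, but its quartiles hold the same cells and overlap strongly with the TBX3 groups, so the result is not independent of the one above. Of cells with TBX3 at 4 or more UMIs, 53.2% lay in the highest tag quartile and 6.79% in the lowest, against 6.797% and 40.7% of cells with none. KCNJ5 and GNAO1 were again at least 25% higher in the highest than in the lowest quartile, a limit passed by 5.25% of the 9144 genes measured, and KCNJ3 and RGS6 at least 20% lower, as were 7.36%. KCNJ5 was at 25.2, 26.6, 39.6 and 61.4 CPM from the lowest to the highest quartile (ratio 2.43, 2.20 to 2.70). Its levels in the lower 2 quartiles had overlapping intervals, and its higher levels lay in the upper 2. KCNJ3 was at 57.5, 45.7, 39.7 and 42.8 CPM (ratio 0.745, 0.684 to 0.810), so that most of its difference lay between the lowest quartile and the next.

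CHRM2 was at 108, 103, 102 and 106 CPM over the 4 quartiles (ratio 0.984, 0.929 to 1.04), and GNAI2 was at 81.5, 84.6, 80.2 and 81.7 CPM (ratio 1.002, 0.938 to 1.07). GNAO1 was at 28.1, 32.1, 45.9 and 69.4 CPM (ratio 2.47, 2.25 to 2.73) and ranked 28th from the highest, next to KCNJ5 at 30th. RGS6 was at 45.6, 40.3, 32.8 and 29.6 CPM (ratio 0.649, 0.588 to 0.716). RGS4 was at 4.56, 3.72, 3.58 and 1.72 CPM (ratio 0.376, 0.255 to 0.547), again below the floor, and its ratio lay between 0.234 and 0.782 under the alternatives. KCNJ3 left its limit under 4 alternatives, at 0.893 with TNNT2 at 4000 CPM or more, 0.841 with the tag taken per RNA UMI, 0.897 with quartiles drawn inside the TBX3 groups and 0.817 as a mean over cells. RGS6 left its limit with quartiles drawn inside the TBX3 groups (0.829).

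**Figure D3:**
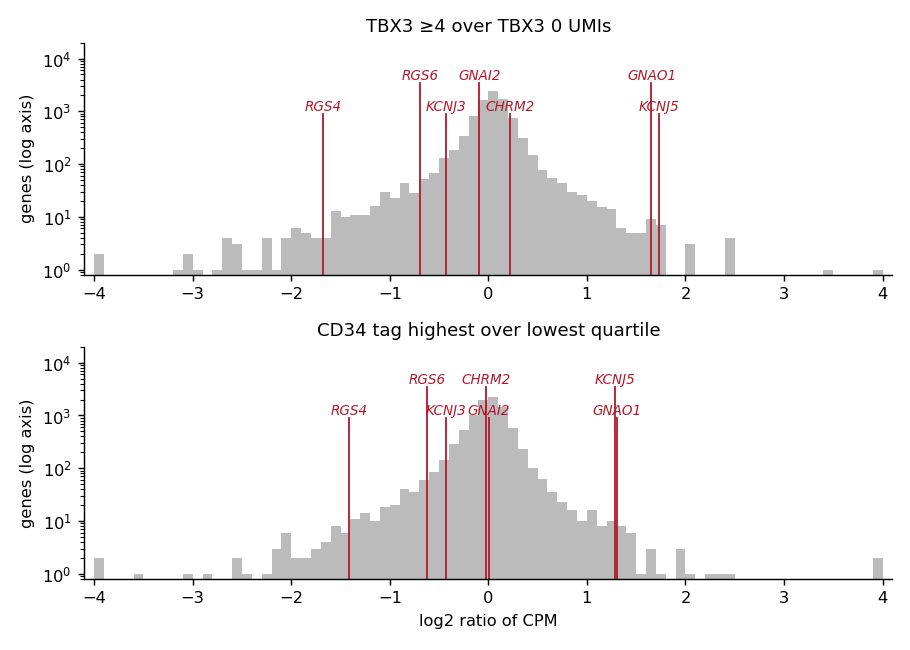
The grey bars count measured genes (log axis) by their log2 ratio of CPM, with TBX3 at 4 or more UMIs over 0 UMIs above and the highest over the lowest tag quartile below, and red lines mark the members; the outermost bars also hold genes beyond -4 and 4. KCNJ5 and GNAO1 lie in the upper tail of both distributions, KCNJ3 and RGS6 lie below the bulk, and RGS4 is drawn although it is under the 10 CPM floor.

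TBX3 and the tag were then each compared inside ranges of the other. Between the highest and the lowest tag quartile, KCNJ5 had ratios of 1.85, 1.70 and 1.47 inside TBX3 of 0, 1 to 3 and 4 or more UMIs, and GNAO1 had ratios of 1.94, 1.73 and 1.498. The lowest lower bound of their counting intervals was 1.18, for KCNJ5 at TBX3 of 4 or more. These intervals, and those of KCNJ3, RGS6 and CHRM2 below, cover counting error only and are not tests. The share of all genes with such ratios inside these ranges was not counted. TBX3 itself was not level inside these groups. Inside TBX3 of 4 or more UMIs it was at 538 CPM in the highest and 370.2 CPM in the lowest tag quartile (ratio 1.45), which is close to the KCNJ5 and GNAO1 ratios there, and inside 1 to 3 UMIs its ratio was 1.14. TBX3 and the tag are therefore not separated at TBX3 of 4 or more UMIs. Inside TBX3 of 0 UMIs, a difference in TBX3 too low to be detected cannot be seen. Median depth in that group was 12548 RNA UMIs in the lowest and 15080 in the highest tag quartile. Between TBX3 at 4 or more and 0 UMIs, KCNJ5 had ratios of 2.55, 3.46, 2.80 and 2.03 inside the 4 quartiles from lowest to highest, and GNAO1 had 2.56, 3.22, 2.59 and 1.98. KCNJ5 thus ranged from 15.2 CPM in cells with no TBX3 UMI in the second quartile to 70.8 CPM in cells with 4 or more in the highest quartile. Drawing quartiles inside the TBX3 groups and pooling them gave tag ratios of 1.48 for KCNJ5 and 1.38 for GNAO1, in place of 2.43 and 2.47.

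KCNJ3 had tag ratios of 0.80, 0.771 and 0.839 inside the 3 TBX3 groups, and the counting interval reached above 1 in cells with TBX3 at 4 or more UMIs (0.676 to 1.05). Its TBX3 ratios inside the 4 quartiles were 0.812, 0.584, 0.874 and 0.851, and the interval excluded 1 in the second quartile alone (0.475 to 0.712). RGS6 had TBX3 ratios of 0.615, 0.587, 0.767 and 0.651, with every interval below 1, and tag ratios of 0.841, 0.700 and 0.891, with the interval below 1 at TBX3 of 1 to 3 UMIs alone. CHRM2 had TBX3 ratios of 1.26, 1.32, 1.17 and 1.15 across the quartiles and tag ratios of 0.938, 0.908 and 0.857 inside the TBX3 groups. Its TBX3 interval reached below 1 in the highest quartile (0.996 to 1.34). Its tag interval lay below 1 at TBX3 of 4 or more UMIs alone (0.748 to 0.985). The opposite signs of its TBX3 and tag ratios stand beside its nearly level value over the tag quartiles as a whole.

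**Figure D4:**
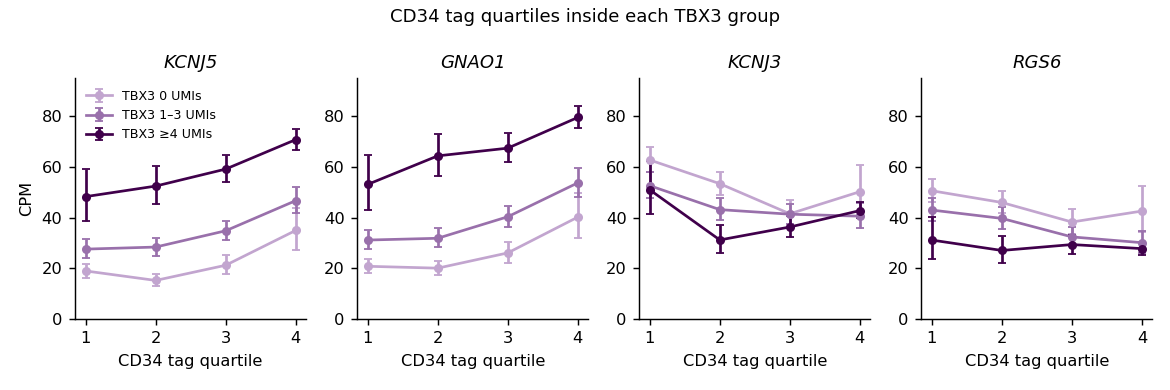
The level of KCNJ5, GNAO1, KCNJ3 and RGS6 in CPM is plotted over the 4 CD34 tag quartiles, with 1 line per TBX3 group and exact 95% counting intervals. For KCNJ5 and GNAO1 the 3 lines are stacked in the order of TBX3 and each is higher in the highest quartile than in the lowest, while the lines of KCNJ3 cross.

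The balance of the 2 channel subunit transcripts therefore differed across the cardiomyocytes. KCNJ5 made up 46.1% (44.997% to 47.2%) of the UMIs of KCNJ3 and KCNJ5 in all cardiomyocytes. The share was 26.3%, 43.2% and 61.5% at TBX3 of 0, 1 to 3 and 4 or more UMIs, and 30.5%, 36.8%, 49.9% and 58.9% from the lowest to the highest tag quartile. In cells with TBX3 at 4 or more UMIs it was 48.6% (41.2% to 56.1%) in the lowest tag quartile and 62.7%, 62.0% and 62.3% in the other three. In cells without a TBX3 UMI it was 23.2%, 22.1%, 33.8% and 41.0%. These are shares of counted molecules, to be compared between groups, and they say nothing of channel protein.

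Markers of other programmes moved with these groups. The working muscle marker NKX2-5 was at 15.6 CPM with TBX3 at 4 or more UMIs and 37.4 CPM with none, and at 6.30 CPM in the highest and 45.6 CPM in the lowest tag quartile. GJA5, another working muscle marker, was at 9.46 CPM with TBX3 at 4 or more UMIs and 35.6 CPM with none, and at 8.10 CPM in the highest and 34.4 CPM in the lowest tag quartile. The 6 fibroblast markers summed to 550 CPM with TBX3 at 4 or more UMIs and 772 CPM with none, the 3 collagen genes among them being lower and DCN (51.97 CPM and 38.6 CPM) and LUM (45.7 CPM and 36.6 CPM) higher. The 6 epithelial markers summed to 1367 CPM and 979 CPM. The 4 smooth muscle markers summed to 3570.2 CPM and 3617 CPM, but MYH11, a smooth muscle myosin, was at 1070.4 CPM with TBX3 at 4 or more UMIs and 359 CPM with none, and at 1021 CPM in the highest and 366 CPM in the lowest tag quartile. The 5 neuronal markers summed to 10.7 CPM and 16.4 CPM. The part of these programmes in the members' ratios was not tested.

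Along TBX3, 19 of the 57 measured pathway genes other than members (33.3%) were past a limit, against 14.0% of all measured genes. Along the tag they were 15 of 54 (27.8%), against 12.6%. Of the 3 measured inward rectifier genes, KCNJ5 and KCNJ8 were higher and KCNJ3 lower in both comparisons, KCNJ8 at 16.01 CPM with TBX3 at 4 or more UMIs and 10.96 CPM with none (ratio 1.46). Of the 4 measured receptors for inhibitory G proteins, S1PR1 and S1PR3 were lower in both, with TBX3 ratios of 0.692 and 0.608 and tag ratios of 0.560 and 0.594. ADORA1 lay between the limits at 1.08 and 1.20. GNAO1 was the only one of 10 measured alpha subunits past a limit along TBX3, and GNAL joined it along the tag at 1.34. GNG7 was the 1 beta or gamma subunit of 8 measured past a limit in either comparison, at 0.624 and 0.636.

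Of 6 measured RGS genes and anchors, RGS5 was higher along TBX3 and the tag (1.55 and 1.49) and RGS6 and RGS7BP lower, RGS7BP, a membrane anchor of the RGS7 family to which RGS6 belongs, at 0.476 and 0.560. Of 16 measured kinases, arrestins and other regulators, 1 was higher and 3 lower in each comparison. The higher one was KCTD12 (1.27 and 1.33), known from neurons to shape the response of GIRK channels to GABA-B receptors. Both measured genes of acetylcholine handling were lower along TBX3, COLQ at a ratio of 0.797 and BCHE, which cleaves acetylcholine, at 4.07 CPM with TBX3 at 4 or more UMIs and 10.5 CPM with none. Along the tag COLQ alone was measured, at 0.826. Of 14 measured cyclic AMP genes, 2 were higher along TBX3 (PDE3B, 2.34; PDE4D, 1.47) and 5 lower, among them ADCY5 (0.614). Along the tag 4 of 12 were lower and none higher, ADCY5 at 0.544.

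The channel needs both subunits in 1 cell, so detection of KCNJ3 and KCNJ5 was counted together, with each cell reduced at random to 5000 RNA UMIs and 289 shallower cardiomyocytes left out. Both were detected in 162 of 5227 cardiomyocytes, 3.099% (2.65% to 3.61%), KCNJ3 alone in 16.3%, KCNJ5 alone in 14.0% and neither in 66.6%. Among other cells both were detected in 2 of 5019, 0.0398% (0.00483% to 0.144%), with KCNJ3 in 1.63% and KCNJ5 in 0.498%. With all UMIs kept, both were detected in 17.2% of cardiomyocytes and 0.248% of other cells. A cardiomyocyte without a UMI of a subunit cannot be called negative for it at this depth.

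The share with both subunits in cardiomyocytes was 0.936 times (0.799 to 1.09) the product of the 2 separate shares, with the interval reaching above 1. That interval is the one of the share with both, divided by the product taken as fixed. It leaves out the error of the product and is not exact for the quotient. This quotient was 0.741, 0.902 and 1.08 at TBX3 of 0, 1 to 3 and 4 or more UMIs, and 0.832, 0.769, 1.01 and 1.05 over the tag quartiles. At TBX3 of 0 it rests on 25 cells where the product gave 33.8, and at 10000 UMIs per cell it was 0.738, on 56 cells where the product gave 75.9. With all UMIs kept it was 0.981 at TBX3 of 0. The share with both was 1.49%, 2.49% and 5.47% at TBX3 of 0, 1 to 3 and 4 or more UMIs, a ratio of 3.67 (2.33 to 5.97) between the ends. It was 2.23%, 1.79%, 3.17% and 5.02% over the tag quartiles, a ratio of 2.25 (1.42 to 3.65) between the ends. At 2500 UMIs per cell that ratio was 16.9, but 0.690% of all cardiomyocytes had both there, so it rests on few cells. KCNJ3, with or without KCNJ5, was detected in 21.2%, 18.6% and 18.5% of cells along TBX3, and KCNJ5 in 9.48%, 14.9% and 27.5%. With all UMIs kept the KCNJ3 shares were 41.5%, 42.2% and 46.1%, in groups whose median depth was 14859, 16254 and 17328 RNA UMIs. KCNJ3 without KCNJ5 was detected in 19.7%, 16.1% and 13.0%, a share that also depends on how many cells have KCNJ5. Of cells with a KCNJ3 UMI, 29.7% also had a KCNJ5 UMI at TBX3 of 4 or more, against 7.02% at TBX3 of 0. At 10000 UMIs per cell both were detected in 4.01%, 7.47% and 14.8% along TBX3, and KCNJ3, KCNJ5 and CHRM2 together in 10.3% of cells with TBX3 at 4 or more and 2.65% of cells with none.

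**Figure D5:**
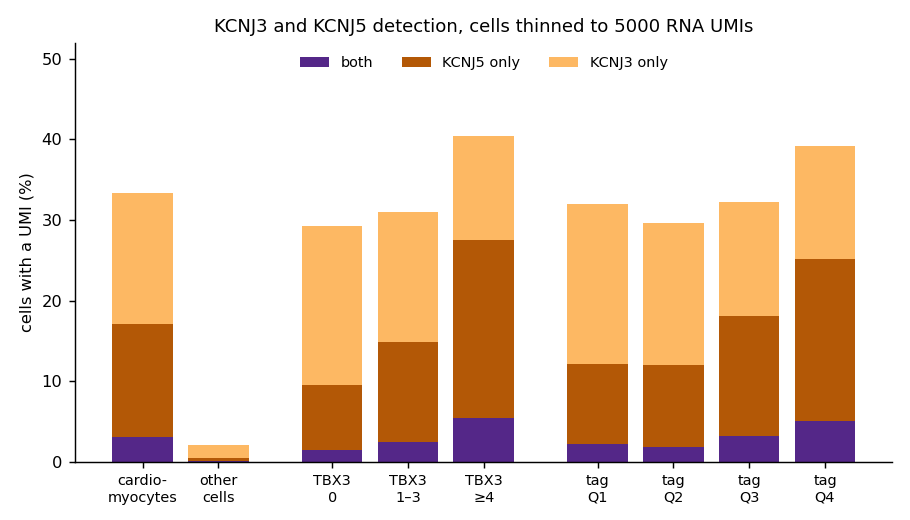
Stacked bars give the percentage of cells with a UMI of both KCNJ3 and KCNJ5, of KCNJ5 alone and of KCNJ3 alone, after each cell was reduced to 5000 RNA UMIs. The share with both is 5.47% at TBX3 of 4 or more UMIs and 1.49% at 0, and across the TBX3 groups and the tag quartiles the share with KCNJ3 alone is smaller where the share with KCNJ5 alone is larger.

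Over all cardiomyocytes, some other pairs of members lay further from the product of their shares. KCNJ5 and GNAO1 were detected together in 242 cardiomyocytes where the product gave 169.6, a quotient of 1.43, which was 1.13 inside the cells with TBX3 at 4 or more UMIs and 1.51 inside the cells with none. KCNJ3 and RGS6 were found together in 201 cells where the product gave 164.3 (1.22), with quotients of 1.23 at TBX3 of 4 or more UMIs and 1.27 at 0. Across the pairing, KCNJ5 with RGS6 gave 0.837, KCNJ3 with GNAO1 gave 0.913 and GNAO1 with RGS6 gave 1.02. Inside the cells with TBX3 at 4 or more UMIs these were 1.12, 1.07 and 1.35. Inside the cells with none they were 0.703, 0.673 and 0.919. The values below 1 therefore did not hold for every cross pair or in every TBX3 group. At 10000 UMIs per cell these cross pairs gave 0.925, 0.956 and 0.967 over all cardiomyocytes. CHRM2 lay near 1 with KCNJ3 (1.01) and GNAO1 (1.02), and at 1.12 with KCNJ5. These quotients are descriptions, and no test was made of them.

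The same pairs appeared over the 12 ranges made by 3 TBX3 groups and 4 tag quartiles. On the scale of log2(CPM + 10), Pearson's r was 0.995 between KCNJ5 and GNAO1 and 0.81 between KCNJ3 and RGS6, against -0.61 between KCNJ3 and KCNJ5 and -0.89 between KCNJ5 and RGS6. These are descriptions over 12 ranges of 1 library that were drawn on TBX3 and the tag. Of 3061 genes with at least 50 CPM on average, those most like KCNJ5 were TBX5, a cardiac transcription factor (r = 0.99; 101 to 208 CPM), CAV2, TSC22D1, CAPN3 and MT1X, with r between 0.979 and 0.985. Those most like KCNJ3 were MTRNR2L12, PPP1R3C, FILIP1, DAAM1 and NFIA, with r between 0.85 and 0.89. MTRNR2L12 is a nuclear copy of mitochondrial sequence, so its counts are uncertain.

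Cycling cardiomyocytes, the 1165 with a summed level of cell cycle markers of 300 CPM or more, held less of most members than the 4351 others. Of the 6 measured members 4 were at least 20% lower, as were 9.25% of the 9321 genes measured. TNNT2 itself had a ratio of 0.648, and Scrublet called 18.1% of cycling and 8.23% of non-cycling cardiomyocytes, whose part in these ratios was not tested. GNAO1 was at 31.8 CPM in cycling and 48.9 CPM in non-cycling cardiomyocytes (ratio 0.650, 0.597 to 0.706). RGS6 had a ratio of 0.672, KCNJ5 of 0.677, KCNJ3 of 0.796 (0.736 to 0.860) and CHRM2 of 0.841. GNAI2 was at 86.6 CPM in cycling and 80.6 CPM in non-cycling cardiomyocytes, a ratio of 1.08 (1.02 to 1.13). Cycling cells were 20.01% of those with TBX3 at 4 or more UMIs and 22.5% of those with none, although the 7 cycle markers summed to 819 CPM with TBX3 at 4 or more UMIs and 669.9 CPM with none. Without cycling cells the TBX3 ratios were 3.51 for KCNJ5, 3.28 for GNAO1 and 0.758 for KCNJ3. Both subunits were detected in 1.55% (0.887% to 2.501%) of cycling and 3.48% (2.95% to 4.08%) of non-cycling cardiomyocytes at 5000 UMIs per cell.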

How the data were processed

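The data are 2 droplet libraries of 1 culture, built with the 10x Genomics 3' version 3 kit, and per the submitters' processing notes Cell Ranger 6.1.2 and GRCh38 were used. The authors deposited whole-number UMI counts for 36601 genes and 1 antibody tag in 14829 barcodes (239181462 RNA and 2773855 tag UMIs). Whether intronic reads were counted is not given in the sources used here. From these deposited counts, cells with at least 1000 genes, at most 25% mitochondrial UMIs and at most 35000 RNA UMIs were kept (11211). The UMIs of all cells in a group were added up and expressed as CPM of RNA UMIs. Levels have exact Poisson intervals, ratios exact conditional intervals and shares exact Clopper-Pearson intervals, all at 95% and for counting error only. The interval of the co-detection quotient is that of the share with both over a fixed product. UMIs correct for PCR copies. Cells of 1 culture are not replicates, so no test was made.

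A gene was measured at 10 CPM or more in the higher group, and counted as higher when at least 25% above and as lower when at least 20% below the second group. Shares of cells used 5000 randomly drawn RNA UMIs per cell. Doublets were kept in the main values. Scrublet in scanpy 1.11.5 called 1401 of 12119 cells (11.6%), and leaving these out was an alternative. Members and gene lists were chosen with earlier results of these data known. The named genes were all members, up to 3 highest and 3 lowest ratios per list, and the 5 genes most like KCNJ3 and KCNJ5. From the longer lists only some of these are printed. The ratio step was tested on simulated data. Python 3.11.15, numpy 2.4.6, scipy 1.17.1 and pandas 2.3.3 were used. Sequences and coordinates are from RefSeq (GRCh38.p14). Some genes of the marker and pathway lists are not reported here by name.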

Additional observations from a re-analysis of the deposited data

How the results depend on the processing

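No ratio of a member that lay past a limit changed direction under any alternative. No paired analysis was possible because there was 1 culture and no test. In cardiomyocytes against other cells, the members counted lower were 2 in place of 1 without the ceiling on UMIs, with TNNT2 limits of 4000 and 500 CPM, with CPM taken without mitochondrial and ribosomal genes and with no floor, RGS4 being the added one. They were 0 with limits of 2 and 0.5, under which 27.3% of genes were past a limit in place of 66.9%. Members higher were 1 with a floor of 50 CPM in place of 5. Along TBX3, members lower were 1 in place of 2 with TNNT2 from 4000 CPM, with TBX3 counted after thinning with the limit at 2 UMIs in place of 4, and with the floor of 50 CPM, 0 with limits of 2 and 0.5, and 3 with no floor. Along the tag, they were 1 in place of 2 with TNNT2 from 4000 CPM, with the tag per RNA UMI, with the mean of per-cell CPM and with the floor of 50 CPM, 0 with limits of 2 and 0.5 and with quartiles drawn inside the TBX3 groups, and 3 with no floor. Genes past a limit were 14.0% along TBX3, 38.9% with no floor and 2.47% at limits of 2 and 0.5. Along the tag they were 12.6%, 41.7% with no floor, 1.73% at limits of 2 and 0.5 and 7.65% with quartiles inside the TBX3 groups. Both subunits were detected in 3.099% of cardiomyocytes at 5000 UMIs per cell, 0.690% at 2500, 8.86% at 10000 and 17.2% without thinning. At 2500 UMIs the share with both was 0.792 times the product, in place of 0.936. The ratio of the highest to the lowest tag quartile was then 16.9, in place of 2.25, and rests on few cells with both. By construction, thinning counts fewer molecules and the floors and limits change which genes are counted, and the cause of the other shifts was not tested. RGS4 rests on 305 UMIs in cardiomyocytes, and depth limits every statement on single cells.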
